A study of Mus musculus with 11 samples.

Results

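Interferon-gamma and the receptors around it were described here through 4 genes: Ifng, which encodes the cytokine interferon-gamma, Ifngr2, which encodes the second chain of its receptor, and Il12rb1 and Il12rb2, which encode the chains of the receptor for interleukin-12 (IL-12). They were found as the rows of the deposited expression table whose identifier carries a RefSeq transcript of 1 of these genes, the brightest row being taken where a gene has several. Each of the 4 genes had 1 probe set, so the set holds 4 of 1246 probe sets and 4 of 909 named genes. A probe set is the group of short probes on an array that reports 1 transcript. The 4 probe sets do not carry the identifier suffixes that mark probes shared between transcripts.

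Transcripts were measured on 11 custom Affymetrix glycan gene arrays, 1 per sample, in splenic CD4+ T cells of female C57BL/6 mice that flow sorting had split into 3 populations, with no other genotype or treatment given. Treg samples were CD4+CD25+ CD45RBlow cells (n = 3, replicates 1, 2 and 4). CD45RBlow samples were CD4+CD25- cells with low CD45RB, which the labels call activated or memory (n = 4), and CD45RBhigh samples were CD4+CD25- cells with high CD45RB, which the labels call naive (n = 4). Mice were 4 to 6 weeks old for both CD25- populations, while no age is given for the Treg samples, so age and the comparisons with Treg cannot be told apart. No label says that replicates came from separate animals, and the spread behind each p-value is that of these samples, which may be technical.

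IL-12 is made by antigen-presenting cells and acts on T cells and natural killer cells through a receptor of the Il12rb1 and Il12rb2 chains. Il12rb2 carries the signal to STAT4 and marks cells of the T helper 1 (Th1) type, whereas Il12rb1 is shared with the receptor for interleukin-23. Th1 cells and natural killer cells release interferon-gamma, and its receptor, built from Ifngr1, which binds it, and Ifngr2, which is needed for the signal, acts on most cell types. In the spleen, interferon-gamma of CD4+ T cells comes mainly from cells that have already met antigen.

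Promoter sequences are shown because Ifng and Il12rb2 were both highest in CD45RBlow cells, whereas Ifngr2 was lowest there. The RefSeq promoter table (build GRCm38.p6) matched 3 of the 4 genes, and each sequence is the stretch upstream of the first annotated transcript start, read 5′ to 3′ on the strand of the gene: for Ifng chr10:118440796-118441045 (plus strand), for Ifngr2 chr16:91546809-91547058 (plus strand) and for Il12rb2 chr6:67376294-67376438 (minus strand). Capitals mark matches to TATAAA (the TATA box), TTCNNNGAA (a core bound by STAT proteins) or AGGTGT (a core bound by T-box factors).
Ifng: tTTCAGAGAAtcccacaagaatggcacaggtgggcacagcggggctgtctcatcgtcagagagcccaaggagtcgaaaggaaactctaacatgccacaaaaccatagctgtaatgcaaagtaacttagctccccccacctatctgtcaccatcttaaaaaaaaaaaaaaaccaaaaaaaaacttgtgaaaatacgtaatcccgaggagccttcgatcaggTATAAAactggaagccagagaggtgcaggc
Ifngr2: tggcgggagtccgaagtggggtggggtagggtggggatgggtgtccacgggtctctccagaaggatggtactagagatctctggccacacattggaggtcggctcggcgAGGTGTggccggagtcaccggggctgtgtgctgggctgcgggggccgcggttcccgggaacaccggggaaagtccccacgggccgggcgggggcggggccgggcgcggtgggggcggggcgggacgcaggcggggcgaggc
Il12rb2: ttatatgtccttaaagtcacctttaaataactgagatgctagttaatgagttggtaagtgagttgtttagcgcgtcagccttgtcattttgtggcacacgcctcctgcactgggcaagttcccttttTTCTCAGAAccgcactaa

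Both strands were searched. The Ifng promoter held 1 TATAAA, at base 221 of the 250 shown, which 12.37% of 32851 promoters hold in a window of that length. It also held 1 TTCNNNGAA, at base 2 (7.02% of promoters). The Il12rb2 promoter, of which 145 bases are shown, held 1 TTCNNNGAA, at base 128 (4.24% of promoters at that length), and no TATAAA. Shares at 145 bases are over the first 145 bases of each promoter sequence, whose distance to the transcript start can differ. The Ifngr2 promoter held neither, but 1 AGGTGT, at base 110 (11.83% of promoters). TGANTCA, the core bound by AP-1 factors, was in none of the 3 (6.75% of promoters at 250 bases and 3.82% at 145). GGAAA, the core bound by NFAT factors and left in lower case, occurred once each in Ifng and Ifngr2 (55.57% of promoters) and not in the Il12rb2 window (38.95%). The GC content was 45.2% in Ifng, 42.8% in Il12rb2 and 74.0% in Ifngr2, the last above that of 95.1% of promoters. These matches describe the letters in the windows only, and a link between them and the expression of the genes was not tested.

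Expression is given on a log2 scale, on which a difference of 1 is a doubling. The medians of the arrays spanned 4.85 to 4.94, and precision is limited by how few arrays there are. A gene is called near background in a population where its mean falls below 3.64, the lower quartile of the table. A difference from it is an estimate that background may make too small, here called a lower bound. Differences were tested with limma over all 1246 probe sets, and a call is an adjusted p under 0.05. Each population enters 2 of the 3 comparisons, so these share arrays.

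CD45RBlow cells stood apart from CD45RBhigh cells in all 4 genes, with Ifng, Il12rb1 and Il12rb2 higher and Ifngr2 lower. Against Treg cells they were higher in Ifng and Il12rb2, while the Il12rb1 values of the 2 populations overlapped. Treg cells were above CD45RBhigh cells in Il12rb1 and below them in Ifngr2, and neither Ifng nor Il12rb2 was called between these populations. Calls were made for 4 of 4 genes between CD45RBlow and CD45RBhigh, for 2 of 4 between Treg and CD45RBlow and for 2 of 4 between Treg and CD45RBhigh. Over all probe sets, 12.6%, 12.5% and 18.9% were called in these comparisons. By direction, 3 members were higher and 1 lower in CD45RBlow than in CD45RBhigh cells, against 7.62% and 4.98% of probe sets. In Treg cells 0 were higher and 2 lower than in CD45RBlow cells (6.74% and 5.78% of probe sets), and 1 was higher and 1 lower than in CD45RBhigh cells (10.3% and 8.59%). Arrays of the populations compared did not overlap for 4 of 4, 2 of 4 and 3 of 4 genes, against 17.8%, 21.3% and 25% of all probe sets. The median member difference was 1.5, −0.60 and 0.17 in that order, beside −0.08, 0.04 and −0.04 over all probe sets.

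**Figure D1:**
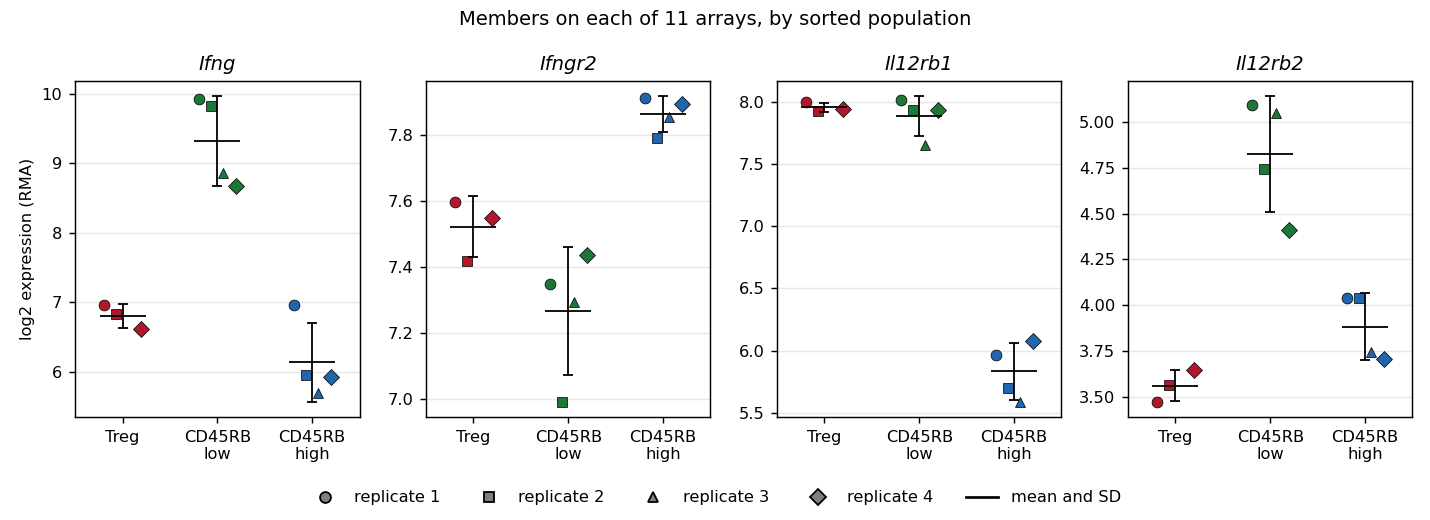
Log2 expression of Ifng, Ifngr2, Il12rb1 and Il12rb2 on each of the 11 arrays, by sorted population; symbols give the replicate number, bars the mean and SD, and each panel has its own vertical range. Ifng and Il12rb2 lie highest in CD45RBlow cells, Ifngr2 highest in CD45RBhigh cells, and Il12rb1 is lowest in CD45RBhigh cells.

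The cytokine gene Ifng had 9.93, 9.82, 8.86 and 8.67 in CD45RBlow replicates 1 to 4. In the Treg samples it had 6.97, 6.83 and 6.62 in replicates 1, 2 and 4, and in the CD45RBhigh samples 6.97, 5.96, 5.70 and 5.92 in replicates 1 to 4. Every CD45RBlow array was thus above every other array, and CD45RBhigh replicate 1 was as high as the highest Treg array. Means were 9.32 ± 0.65 (SD, n = 4) in CD45RBlow, 6.80 ± 0.18 (SD, n = 3) in Treg and 6.13 ± 0.57 (SD, n = 4) in CD45RBhigh cells. CD45RBlow exceeded CD45RBhigh cells by 3.19 (SE 0.33, 9.10-fold, adjusted p = 4.76e-05), the rank 4 difference in size among the 1246 probe sets. Treg cells were 2.52 below CD45RBlow cells, a log2 difference of −2.52 (SE 0.35, 5.72-fold, adjusted p = 0.000485). Treg and CD45RBhigh cells, neighbours in the order of levels, were not called different (0.67, SE 0.35, 95% interval −0.11 to 1.45, adjusted p = 0.240). CD45RBhigh replicates 2 to 4 were below every Treg array. On leaving out 1 array in turn the difference was 0.52 to 0.95, and limma did not call it (adjusted p 0.0628 to 0.456). In sorted bulk samples, more cells with the transcript and more transcript per cell cannot be told apart.

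Within every population Ifng was higher in replicates 1 and 2 than in the others, a split of the arrays already known from earlier results of these data and named by no label. With population in the model, replicates 1 and 2 exceeded 3 and 4 by 0.73 (SE 0.17, 95% interval 0.36 to 1.11, adjusted p = 0.0108). Over all probe sets 20.6% were called for this split. For Ifngr2, Il12rb1 and Il12rb2 the same difference was −0.09, 0.07 and 0.16, with adjusted p of 0.460, 0.663 and 0.400. The split was known from these same arrays, so these p-values and the share describe it and do not test it. The Ifng difference between CD45RBlow and CD45RBhigh cells was 3.41 within replicates 1 and 2 and 2.96 within 3 and 4. Between Treg and CD45RBlow cells it was −2.97 within replicates 1 and 2 and −2.15 within 3 and 4, where Treg is a single array. Both differences were therefore present in each set of replicates, at sizes above that of the split.

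Ifngr2, the receptor chain needed for the interferon-gamma signal, ran the other way, over a much smaller range. Its values were 7.35, 6.99, 7.29 and 7.44 in CD45RBlow replicates 1 to 4, and 7.60, 7.42 and 7.55 in Treg replicates 1, 2 and 4. In CD45RBhigh replicates 1 to 4 it had 7.91, 7.79, 7.85 and 7.89, all above the other populations. Means were 7.86 ± 0.05 (SD, n = 4) in CD45RBhigh, 7.52 ± 0.09 (SD, n = 3) in Treg and 7.27 ± 0.19 (SD, n = 4) in CD45RBlow cells. CD45RBlow cells were lower than CD45RBhigh cells by a log2 difference of −0.59 (SE 0.09, 1.51-fold, adjusted p = 0.000856). This difference was −0.68 within replicates 1 and 2 and −0.51 within 3 and 4. Treg cells were also below CD45RBhigh cells, at −0.34 (SE 0.10, 1.27-fold, adjusted p = 0.0313). That call ended on leaving out any 1 of the 3 Treg arrays or CD45RBhigh replicate 1, 3 or 4, with adjusted p of 0.0528 to 0.128. Treg and CD45RBlow cells overlapped and differed by 0.25 (SE 0.10, adjusted p = 0.134), a difference that passed only with the replicate number as a block (0.26, adjusted p = 0.0425).

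The partner chain Ifngr1, which binds interferon-gamma, is no member of the set but completes the receptor. It had 10.02, 9.84 and 9.70 in the Treg samples, 9.55, 9.35, 8.56 and 9.04 in CD45RBlow replicates 1 to 4, and 9.64, 9.18, 9.21 and 9.20 in CD45RBhigh replicates 1 to 4. All 3 Treg values lay above the CD25- values, and the CD25- populations overlapped. Treg exceeded CD45RBlow cells by 0.73 (SE 0.21, adjusted p = 0.0414), and this no longer passed on leaving out any 1 of 8 arrays. Those arrays were the 3 Treg arrays, CD45RBlow replicates 3 and 4 and CD45RBhigh replicates 2, 3 and 4, and adjusted p reached at most 0.149. The 0.55 difference from CD45RBhigh cells did not pass (adjusted p = 0.101) but did with the replicate number as a block (adjusted p = 0.0225). Between the CD25- populations Ifngr1 differed by −0.18 (SE 0.19, adjusted p = 0.545). Ifngr2, in contrast, was called between the CD25- populations; whether the chains changed unequally was not tested.

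Il12rb1, the chain shared by the IL-12 and interleukin-23 receptors, had 8.0, 7.93 and 7.94 in the Treg samples. It had 8.02, 7.94, 7.65 and 7.94 in CD45RBlow replicates 1 to 4 and 5.96, 5.70, 5.59 and 6.08 in CD45RBhigh replicates 1 to 4. The CD45RBhigh arrays were all below the rest, and the 3 Treg values lay within the range of the CD45RBlow values. Means were 7.96 ± 0.04 (SD, n = 3) in Treg, 7.89 ± 0.16 (SD, n = 4) in CD45RBlow and 5.83 ± 0.23 (SD, n = 4) in CD45RBhigh cells. Treg exceeded CD45RBhigh cells by 2.12 (SE 0.12, 4.36-fold, adjusted p = 2.73e-07), and CD45RBlow exceeded CD45RBhigh cells by 2.05 (SE 0.11, 4.15-fold, adjusted p = 4.93e-07). Within replicates 1 and 2 these differences were 2.13 and 2.15, and within 3 and 4 they were 2.11 and 1.96. Treg and CD45RBlow cells differed by 0.07 (SE 0.12, adjusted p = 0.786). The 95% interval of that difference, −0.20 to 0.34, holds no difference as large as those from CD45RBhigh cells.

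Il12rb2, the chain that carries the IL-12 signal to STAT4, was dim. It had 5.09, 4.75, 5.05 and 4.41 in CD45RBlow replicates 1 to 4, 4.04, 4.04, 3.75 and 3.70 in CD45RBhigh replicates 1 to 4, and 3.47, 3.56 and 3.64 in the Treg samples. The 3 populations did not overlap, with Treg lowest, but the gap between the highest Treg and the lowest CD45RBhigh array was small. Means were 4.82 ± 0.32 (SD, n = 4) in CD45RBlow, 3.88 ± 0.18 (SD, n = 4) in CD45RBhigh and 3.56 ± 0.09 (SD, n = 3) in Treg cells, the last near background. CD45RBlow exceeded CD45RBhigh cells by 0.94 (SE 0.14, 1.92-fold, adjusted p = 0.000969), with 0.88 within replicates 1 and 2 and 1.00 within 3 and 4. Treg cells were 2.40-fold below CD45RBlow cells, a lower bound (log2 difference −1.26, SE 0.16, 95% interval −1.61 to −0.92, adjusted p = 0.000185). Treg and CD45RBhigh cells, neighbours in the order, did not differ beyond the test's threshold (−0.32, SE 0.16, 95% interval −0.67 to 0.02, adjusted p = 0.199).

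**Figure D2:**
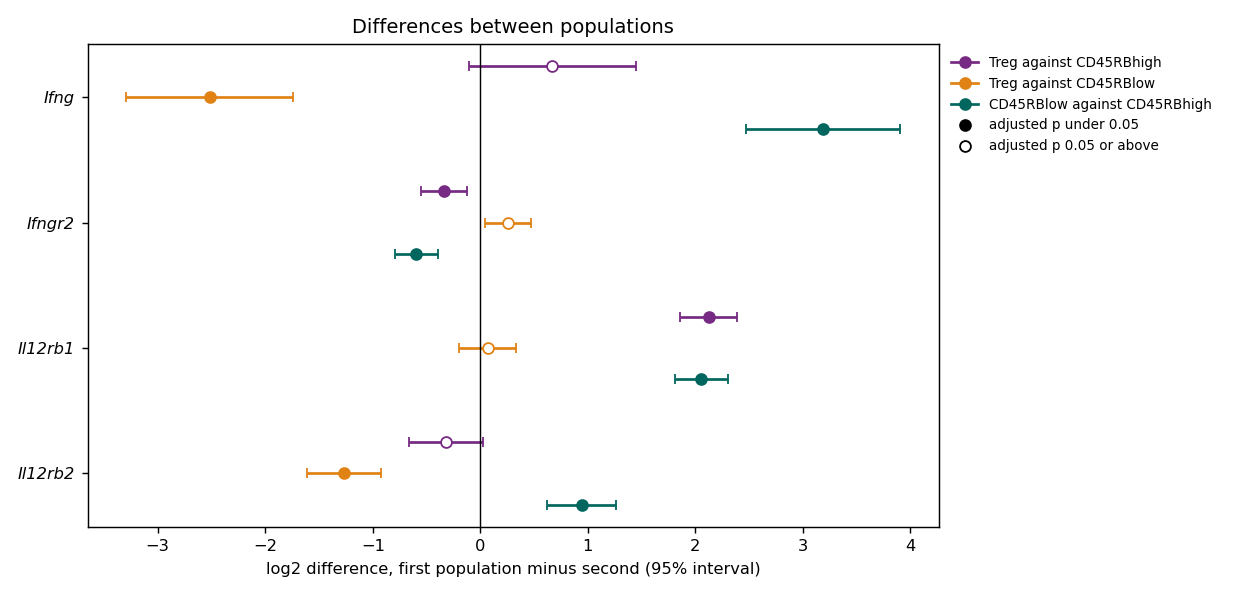
Log2 difference between populations for each gene (first population minus second) with its 95% interval from limma; filled points have an adjusted p under 0.05. The CD45RBlow against CD45RBhigh difference is filled for each gene, from −0.59 in Ifngr2 to 3.19 in Ifng, and the open points are Treg against CD45RBhigh for Ifng and Il12rb2 and Treg against CD45RBlow for Ifngr2 and Il12rb1.

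The chains of the IL-12 receptor were then compared with each other on the same array. The difference Il12rb1 minus Il12rb2 within an array removes what an array does to both genes. Its size also depends on the probes, so only its change between populations can be read. It was 4.53, 4.36 and 4.30 in the Treg samples, 2.92, 3.19, 2.61 and 3.53 in CD45RBlow and 1.92, 1.66, 1.84 and 2.37 in CD45RBhigh replicates 1 to 4. The 3 populations did not overlap: Treg arrays were highest and CD45RBhigh arrays lowest. It was larger by 2.45 in Treg than in CD45RBhigh cells and by 1.33 than in CD45RBlow cells (exact permutation p = 0.0571 for each, two-sided, the smallest that 3 against 4 arrays allow). Both are lower bounds, since Il12rb2 was near background in Treg cells. CD45RBlow exceeded CD45RBhigh cells by 1.11 (exact permutation p = 0.0286, the smallest that 4 against 4 allow).

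The difference Ifng minus Ifngr2, the cytokine against its signalling chain, was 2.58, 2.83, 1.57 and 1.23 in CD45RBlow replicates 1 to 4. It was −0.63, −0.59 and −0.93 in the Treg samples and −0.95, −1.83, −2.16 and −1.98 in CD45RBhigh replicates 1 to 4. No populations overlapped, although the lowest Treg and the highest CD45RBhigh array were nearly level. CD45RBlow exceeded CD45RBhigh cells by 3.78 (exact permutation p = 0.0286), Treg was −2.77 from CD45RBlow, and Treg exceeded CD45RBhigh cells by 1.01 (exact permutation p = 0.0571 for both). Adjusted over these 6 comparisons each p was 0.0571, so none passed 0.05 after adjustment.

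**Figure D3:**
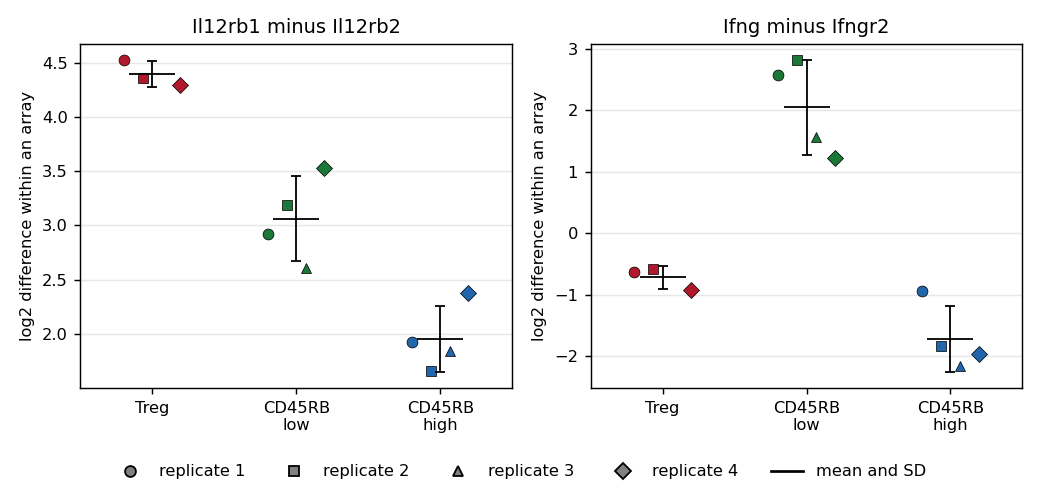
Difference between the log2 values of 2 genes on the same array, Il12rb1 minus Il12rb2 and Ifng minus Ifngr2, by population; symbols give the replicate number and bars the mean and SD. Il12rb1 minus Il12rb2 averages 4.40 in Treg (a lower bound, Il12rb2 being near background there), 3.06 in CD45RBlow and 1.95 in CD45RBhigh cells, and Ifng minus Ifngr2 averages −0.72, 2.05 and −1.73.

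Markers of the sort and of other cells were read beside these values. CD25 itself (Il2ra) was 9.84 in Treg, 6.17 in CD45RBlow and 4.07 in CD45RBhigh cells. The other Treg markers measured were higher in Treg than in both CD25- populations, so that 6 of 6 were called. These 6 were also higher in CD45RBlow than in CD45RBhigh cells (median 1.99), as Il12rb1 was, and the part of such cells in the CD45RBlow values was not tested. Over all probe sets 10.3% and 6.74% were higher in Treg than in CD45RBhigh and CD45RBlow cells, and 7.62% in CD45RBlow than in CD45RBhigh cells. Foxp3 was not among the measured genes. Cd44 was 9.25, 9.31 and 7.81 and Ccr7 10.37, 10.69 and 11.38 in the same order. Of CD4 and CD8 lineage markers 0 of 6 and 0 of 2 were measured, so neither lineage could be checked. Natural killer cells also make interferon-gamma, and 8 of their 12 listed markers were measured, without Ncr1 and Klrb1c. The mean of the 8 was 3.54 to 3.59 on Treg, 4.45 to 4.68 on CD45RBlow and 4.57 to 4.94 on CD45RBhigh arrays, with 3 of 8 near background in each population. The brightest, Klrd1, was 3.93 in Treg, 8.28 in CD45RBlow and 9.22 in CD45RBhigh cells. Between CD45RBlow and CD45RBhigh cells 1 of the 8 was higher, Klrc1 (0.59, adjusted p = 0.0188), and 2 were lower, Klrd1 (−0.94, adjusted p = 0.00581) and Klra4, the last near background in both. Over all probe sets 7.62% were higher and 4.98% lower in this comparison. The Klrc1 call ended without CD45RBlow replicate 1 or 2, with adjusted p of up to 0.0605. The part of natural killer cells in the levels of Ifng and Il12rb2 was not tested.

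The genes whose pattern over the 11 arrays was most like each member were found by the root mean square (RMS) difference of log2 values, after each gene was centred on its own mean. This is a description of 11 arrays that share 3 populations, and genes picked this way tend to share a member's order of populations. For Ifng, whose values had an RMS deviation of 1.49 about their mean, the nearest were Il2, a T cell growth factor (0.463), Cxcr6, a homing receptor (0.481), and Xcl1, a chemokine (0.497). Each was highest in CD45RBlow cells: Il2 had means of 5.76 in CD45RBlow, 3.67 in Treg and 3.35 in CD45RBhigh cells. For Ifngr2 (0.278 about its mean) 2 near patterns were those of Il6st, the shared chain gp130 (0.147), and Ctns, the lysosomal cystine transporter (0.149). Il6st had means of 10.27 in CD45RBhigh, 9.97 in Treg and 9.65 in CD45RBlow cells.

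For Il12rb1 (RMS deviation 1.01) the nearest patterns were those of Bmp7, a secreted growth factor (0.186), Cxcr5, the follicle homing receptor (0.264), and Cxcl10, a chemokine that interferon-gamma induces (0.317). Bmp7 had means of 7.57 in Treg, 7.43 in CD45RBlow and 5.63 in CD45RBhigh cells. For Il12rb2 (0.569) they were Klrc1, an inhibitory receptor of the NKG2 family and a natural killer marker (0.257), Gcnt2, a glycosyltransferase (0.287), and Fzd5, a Wnt receptor (0.289), whose probe set has a suffix for probes shared between transcripts. Klrc1 had means of 5.20 in CD45RBlow, 4.61 in CD45RBhigh and 4.20 in Treg cells.

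**Figure D4:**
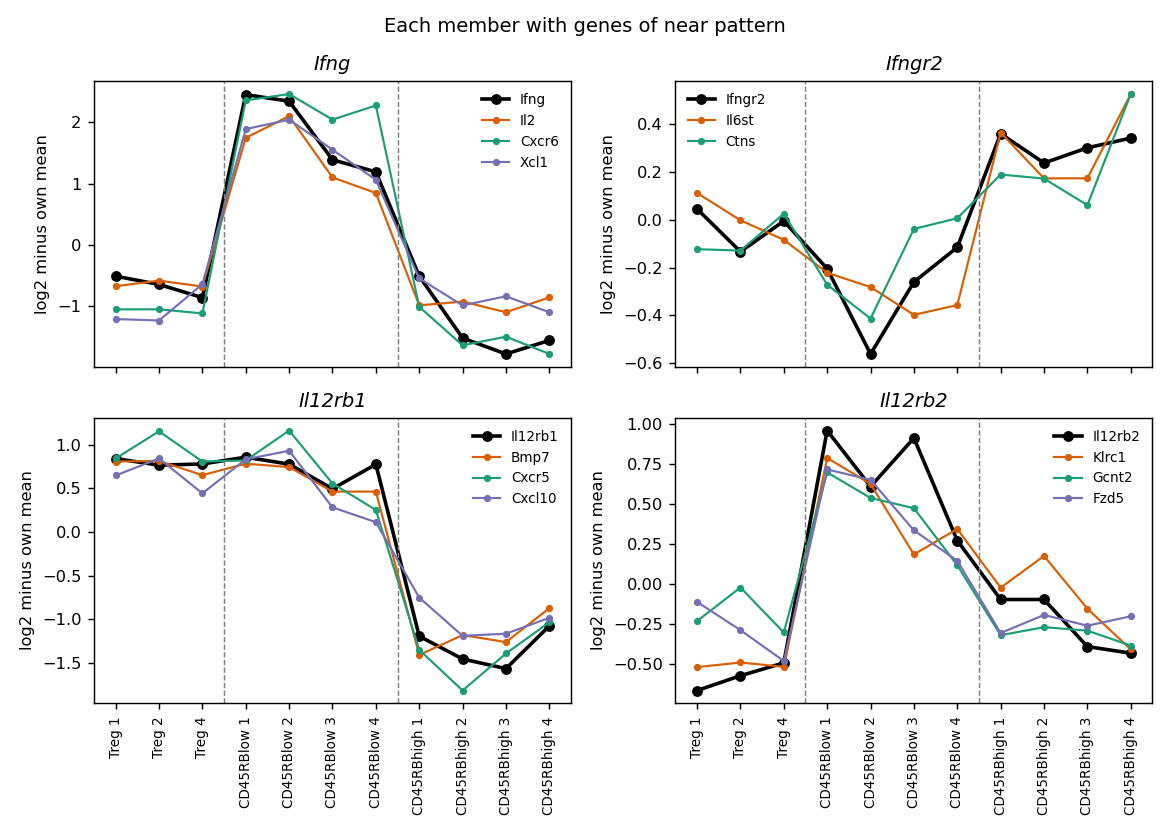
Log2 values centred on each gene's own mean, across the 11 arrays, for each of the 4 genes (black) and 2 or 3 named genes with small RMS differences from it (colours); dashed lines part the populations. Il2 and Xcl1 follow Ifng in being higher in CD45RBlow replicates 1 and 2 than in 3 and 4, and Bmp7 follows Il12rb1 most closely, at 0.186.

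The rest of the axis was described by gene lists, by counts and medians with no test of the list. Over all probe sets 12.6% were called between CD45RBlow and CD45RBhigh, 12.5% between Treg and CD45RBlow and 18.9% between Treg and CD45RBhigh cells. The medians over all probe sets were −0.08, 0.04 and −0.04 in that order. Of other interferons and class II cytokine receptors, the family of the interferon-gamma receptor, 13 of 18 were measured. In Treg against CD45RBlow cells 3 were higher and 10 did not pass (median 0.12), while 4 were higher with the replicate block, which added Ifnar1 (adjusted p = 0.0293). The 3 were Ifngr1, above, Il10ra (0.70, adjusted p = 0.0333) and Il10rb (0.73, adjusted p = 0.000198), the chains of the interleukin-10 receptor. The Il10ra call ended on leaving out any 1 of 8 arrays, namely each Treg and each CD45RBlow array and CD45RBhigh replicate 3, with adjusted p of up to 0.129. Against CD45RBhigh cells Treg were higher in Il10ra (1.14, adjusted p = 0.00117) and Il10rb (0.86, adjusted p = 3.25e-05) and lower in Il22ra1, an interleukin-22 receptor chain (−0.23, adjusted p = 0.0439). The Il22ra1 call was lost with the replicate block (adjusted p = 0.0620) and without any 1 of 9 arrays, that is, except Treg replicate 1 and CD45RBhigh replicate 1. Between the CD25- populations 0 of 13 passed in limma (without adjustment, p was under 0.05 for 3, of which 1 was higher and 2 lower), and 2 did with the block: Il10ra higher (adjusted p = 0.0171) and Ifnar1, a type I interferon receptor chain, lower in CD45RBlow cells (adjusted p = 0.00604). These 2 genes were named after their values were seen.

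Of the IL-12 family ligands and their other receptor chains 6 of 8 were measured. Of these 6, only Il6st was called in each comparison, a share near that of all probe sets. Il6st, a chain of the interleukin-27 receptor, was lower in CD45RBlow than in CD45RBhigh cells (−0.62, SE 0.09, adjusted p = 0.000481). Treg lay between, at −0.30 from CD45RBhigh (adjusted p = 0.0461) and 0.32 from CD45RBlow cells (adjusted p = 0.0450). The first of these calls ended without any 1 of 9 arrays (except CD45RBhigh replicates 2 and 3) and the second without any 1 of 8 (except CD45RBhigh replicates 2, 3 and 4). The other 5 did not pass in any comparison, although with a block for the replicate set Il23r passed in Treg against CD45RBhigh cells (adjusted p = 0.0432), and without CD45RBhigh replicate 4 Il27, a ligand named after its values were seen, passed between the CD25- populations (adjusted p = 0.0266). Il23r, the partner of Il12rb1 in the interleukin-23 receptor, was near background at 3.26, 3.21 and 2.97 in Treg, CD45RBlow and CD45RBhigh cells. Il12a, which encodes a subunit of IL-12, was 5.96, 5.89 and 5.92. Of 11 genes for signalling of IL-12 and interferon-gamma, such as Stat4 and Tbx21, 0 were measured.

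Of Th1-type effector and homing genes 11 of 17 were measured, and 8 were higher and 0 lower in CD45RBlow than in CD45RBhigh cells (median 2.21). Examples are the homing receptors Cxcr6 (3.76, adjusted p = 2.89e-08) and Cxcr3 (3.47, adjusted p = 2.89e-08), the chemokine Ccl5 (2.27, adjusted p = 6.99e-06) and Il18rap, an interleukin-18 receptor chain (1.35, adjusted p = 1.16e-05). Il18r1, its partner, was among the 8 (0.52, adjusted p = 0.0168) and lost its call without CD45RBlow replicate 1 (adjusted p = 0.0562). Against CD45RBlow cells Treg were lower in 7, with Cxcr6 at −3.36 and Xcl1 at −2.66, and higher in 1, Havcr2, which encodes the inhibitory receptor TIM-3 (0.83, adjusted p = 2.77e-05), a gene near background in the CD25- cells. Against CD45RBhigh cells Treg were higher in 3 of 11, among them Cxcr3 (1.93) and Havcr2 (0.89). Cxcr3 was thus 10.93 ± 0.16 (SD, n = 4) in CD45RBlow, 9.40 ± 0.18 (SD, n = 3) in Treg and 7.46 ± 0.27 (SD, n = 4) in CD45RBhigh cells. Cxcr3, Cxcr6 and Ccl5 also stand in the list of memory T cell markers, 6 of 6 of which were higher in CD45RBlow than in CD45RBhigh cells.

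Of 17 interferon-gamma-induced genes only 4 were measured. Cxcl10, Icam1 and Cd74 were higher than in CD45RBhigh cells in both Treg (1.67, 1.04 and 2.46) and CD45RBlow cells (1.57, 0.76 and 0.52), and the largest adjusted p was 0.0139, while Cxcl9 was near background in each population. Icam1 is an adhesion molecule and Cd74 the invariant chain that guides class II molecules. Between Treg and CD45RBlow cells Cd74 alone was called (1.94, adjusted p = 1.72e-06). Cd74 is abundant in B cells: of 6 B cell markers 2 were measured, Cd72 at 8.24, 7.39 and 7.70 and Cd22 at 6.35, 6.64 and 6.06 in Treg, CD45RBlow and CD45RBhigh cells. The part of B cells in the Cd74 level was not tested.

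Other helper T cell cytokines, 11 of 12 measured, were read beside Ifng. In CD45RBlow cells 6 were higher and 0 lower than in CD45RBhigh cells (median 0.97). These were Il4 (2.54, adjusted p = 1.27e-05), Csf2 (0.97), Il21 (2.62), Il10 (1.09) and, named after their values were seen, Il22 (1.70) and Il17a (1.55). Il21, Il22 and Il17a were near background in CD45RBhigh and Treg cells, so their differences from CD45RBlow cells are lower bounds. The Il17a call (adjusted p = 0.0223) ended without CD45RBlow replicate 1 or CD45RBhigh replicate 1 or 3, with adjusted p of up to 0.0699. Il4 is the cytokine of the Th2 type and Il17a and Il22 those of the Th17 type, so calls in CD45RBlow cells were not limited to the Th1 cytokine Ifng. Treg were lower than CD45RBlow cells in Il4 (−2.65), Csf2 (−0.89) and Il21 (−2.27, adjusted p = 0.0304, lost without any 1 Treg array or CD45RBlow replicate 1, up to 0.0937). With the block Il22 and Il17a joined them (adjusted p = 0.00751 and 0.0446). Il10, an anti-inflammatory cytokine, was the exception, with 8.68 in Treg, 6.16 in CD45RBlow and 5.08 in CD45RBhigh cells. Il10 was the 1 gene of the list called between Treg and CD45RBhigh cells, and the block added Tgfb1 (adjusted p = 0.00619).

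Of other class I cytokine receptors, the family of both IL-12 receptor chains, 16 of 21 were measured. In CD45RBlow against CD45RBhigh cells 4 were higher and 2 lower (median 0.02), and in Treg against CD45RBhigh cells 3 were higher and 2 lower (median 0.05). Il2rb, a chain shared by the receptors of interleukin-2 and interleukin-15, was higher in CD45RBlow cells (2.57) and in Treg (3.51) than in CD45RBhigh cells, as Il12rb1 was. Il7r, the interleukin-7 receptor, was lower (−0.50 and −1.28), and so was Il6ra, the interleukin-6 receptor (−0.72 and −0.81). Il2ra, higher in both, encodes CD25, which parted Treg from CD25- cells in the sort. The CD25- populations were parted from each other on CD45RB. The genes left to name, after their values were seen, are Il9r (0.44) and Il15ra (0.22, adjusted p = 0.0430), higher in CD45RBlow than in CD45RBhigh cells, and Il3ra, higher in Treg than in CD45RBhigh cells (0.72). The Il15ra call ended without any 1 of 8 arrays, that is, except CD45RBlow replicates 3 and 4 and CD45RBhigh replicate 3, with adjusted p of up to 0.128. In Treg against CD45RBlow cells 2 were higher, Il2ra and Il2rb (0.95, adjusted p = 0.00986, or 0.0528 without Treg replicate 1), and 2 lower, Il7r (−0.77) and Il2rg (−0.22, adjusted p = 0.0290). The Il2rg call ended without Treg replicate 1 or 2 or CD45RBlow replicate 1 or 4, with adjusted p of up to 0.111. The replicate block added calls for Il4ra in both comparisons with CD45RBlow cells, Il3ra between Treg and CD45RBlow and Il21r between the CD25- populations, at adjusted p of 0.00157 to 0.0400.

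**Figure D5:**
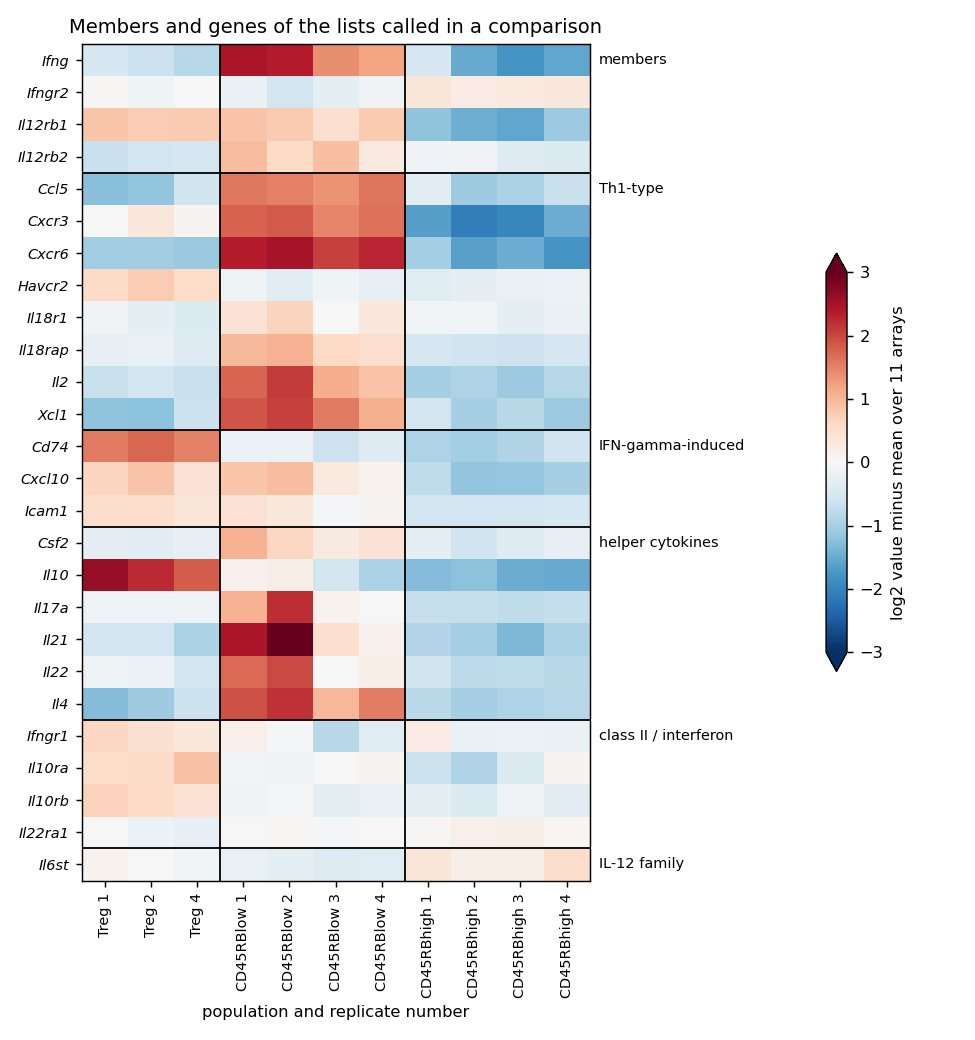
Log2 values minus each gene's mean over the 11 arrays for the 4 genes and for list genes among those called in at least 1 comparison; columns are arrays and the colour scale ends at −3 and 3. The CD45RBlow columns are reddest for Ifng, Cxcr6, Il2, Xcl1, Il21 and Il4, and Il10 and Cd74 are reddest in the Treg columns.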

How the data were processed

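The deposited log2 values come from Robust Multichip Average (RMA), per the submitters' processing notes and the series text, and its version is not given in the sources used here. RNA was extracted with Trizol according to the labels, but with an RNeasy kit according to the series text. The 11 arrays and 1246 probe sets were used as deposited, with no filter. RefSeq identifiers gave symbols for 963 probe sets, and the files name no genome build.

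Populations were compared with limma 3.58.1 (R 4.3.3) in 1 fit of 3 population means over the 11 arrays. The moderated variances had 8 residual and 2.87 prior degrees of freedom. Two-sided p-values were adjusted by the method of Benjamini and Hochberg across 1246 probe sets in each comparison. Within-array differences were compared by exact permutation (scipy 1.17.1). Named were the 4 members, 3 nearest patterns per member, up to 4 genes per list and comparison by smallest adjusted p, and sort and natural killer markers, other genes being said to fall outside. Of 1246 probe sets 679 (54.5%) hold an equal value on at least 2 arrays, as Ifng does on Treg 1 and CD45RBhigh 1, but no arrays share more than 5.86% of values, so none was taken as a duplicate.

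Arrays of the same replicate number deviated together from their population means (10 pairs, correlation 0.310 to 0.561, median 0.461). The reported limma and permutation tests did not use this pairing, which entered only as a block among the alternatives. Sample titles also share an ending within a replicate number, but no label says what the ending or the number stands for. Arrays of other numbers within replicates 1 and 2 or 3 and 4 reached correlations of 0.203 to 0.579. Alternatives were a replicate block, fixed or random, a block for the replicate set, only the arrays compared, 2 other scalings, a filter on dim probe sets, other moderation and leaving out each array. The members, lists and tests were chosen with earlier results of these data known. The fit was also run on simulated arrays drawn independently of each other. That run lacked the correlation between replicates seen here and so cannot tell how the fit performs under it. Some genes of the lists and of the nearest patterns are counted but not reported by name here.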

Additional observations from a re-analysis of the deposited data

Results flagged for a closer look

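Ifngr1 in CD45RBhigh replicate 1 was 9.64, while the other 3 CD45RBhigh arrays had 9.18 to 9.21, so the gap made up 0.95 of the range, more than Dixon's 95% critical value for 4 samples. Of 72 groups of 4 arrays looked at, from 36 genes, this was the 1 that stood out, and about 1 in 20 would by chance. The members' own groups had no such array.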

How the results depend on the processing

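Of 12 member comparisons 8 were called, and 7 of these kept direction and call under 19 alternatives, 11 of which left out 1 array. The exception was Ifngr2 in Treg against CD45RBhigh cells, at −0.34 with adjusted p = 0.0646 under an intensity trend and robust moderation, and −0.38 to −0.29 on leaving out 1 array, where adjusted p reached 0.128. With the replicate block Ifngr2 in Treg against CD45RBlow cells was 0.26 and passed (adjusted p = 0.0425), and Il12rb1 in the same comparison turned to −0.0100, as it did on leaving out CD45RBlow replicate 3 (−0.0080 to 0.113 over the arrays left out in turn); neither Il12rb1 value passed. The block changed no other member call. It raised the probe sets called from 156 to 245 for Treg against CD45RBlow and from 157 to 271 for CD45RBlow against CD45RBhigh cells, and a block for the replicate set gave 238 and 247. For Treg against CD45RBhigh cells, calls ranged from 164 to 330 around 235. Each member has 1 probe set, so another probe set of the gene could not be tried. Under other scalings the median over all probe sets lay between −0.08 and 0.03. Il12rb2 in Treg cells was near background, so its level there is a bound, and 3 or 4 arrays per population limit the within-array tests, which cannot pass 0.05 after adjustment.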
